A study of Mus musculus with 8 samples.

Results

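The NRF2 antioxidant genes described here were Nfe2l2, Keap1, Hmox1, Nqo1, Gclc, Gclm, Srxn1, Txnrd1, Slc7a11 and Gsr. These 10 genes were chosen by symbol from the 22520 genes of a table of expression in liver cells prepared as endothelial cells (ECs). All 10 symbols were found in it. The table held 8 mRNA-seq libraries from the livers of C57BL/6 mice at postnatal day 14. The comparison asked which transcripts differ in these cells when LRP1, a large endocytic and signaling receptor, is deleted from the endothelium. The 4 WT libraries came from LRP1 f/f mice without CreER (LRP1 f/f; Cdh5-CreER-/-), and the 4 LRP1 eKO libraries came from littermates with 1 copy of the transgene (LRP1 f/f; Cdh5-CreER+/-). Both genotypes therefore carried the floxed alleles, and the Cdh5 promoter, which is active in ECs, drove CreER in the eKO mice. Since CreER was present in one genotype only, CreER itself and Lrp1 deletion cannot be told apart. The labels call the cells liver microvesicular cells, and by the study's methods they were selected with beads carrying a PECAM-1 antibody. Neither the labels nor the methods used here say that each library was a separate animal, so the p-values measure only the spread between these libraries, which may be technical.

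NRF2, the protein of Nfe2l2, is a transcription factor that pairs with small MAF proteins and binds antioxidant response elements in the DNA of its target genes. In unstressed cells KEAP1 holds NRF2 for ubiquitination by a CUL3 ligase, and oxidants or electrophiles that modify KEAP1 let NRF2 accumulate, so that its activity is set largely by protein stability and need not follow its transcript. Its classical targets make glutathione, reduce thioredoxin and peroxiredoxins, break down heme and detoxify quinones, and the pathway is known in the liver for its part in drug detoxification and in endothelium for its response to laminar flow.

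The letters of the antioxidant response element were looked for around the start sites of the genes, since NRF2 acts on its targets through this element. The core was written as TGACNNNGC and searched on both strands in RefSeq promoter windows of 300 bases on GRCm38.p6, which cover 250 bases before and 50 bases after a start site. Such windows were given for 7 of the 10 genes, 9 windows in all because Txnrd1 had 3, and none was given for Hmox1, Gclc and Gsr. The core was present in 4 of the 9 windows, those of Gclm, Nfe2l2 and Srxn1 and 1 of the 3 of Txnrd1, and in 12.4% of the 32851 windows of all genes. The letters were not in the windows of Keap1, Nqo1 or Slc7a11, and sequence outside the windows was not searched. The Gclm and Txnrd1 sequences are shown at length because their transcripts differed between the genotypes in opposite directions while both windows held the core. The capitals mark the core, which reads GCNNNGTCA where it lies on the opposite strand, and each sequence is given on the strand of its gene. They cover chr3:122245307-122245526 on the plus strand for Gclm, 220 bases whose core begins 134 bases before the start site, and chr10:82858956-82859175 on the plus strand for a downstream start of Txnrd1, 220 bases whose core begins 92 bases before that start. The 29-base sites of Nfe2l2, at chr2:75704885-75704913 on the minus strand, and of Srxn1, at chr2:152105542-152105570 on the plus strand and within the 5′ UTR, complete the set. A match of letters is a description and not a binding site.
Gclm: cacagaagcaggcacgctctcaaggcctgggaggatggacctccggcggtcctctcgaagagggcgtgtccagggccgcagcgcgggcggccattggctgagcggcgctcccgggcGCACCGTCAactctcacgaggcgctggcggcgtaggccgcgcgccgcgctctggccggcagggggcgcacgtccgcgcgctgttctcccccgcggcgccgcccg
Txnrd1: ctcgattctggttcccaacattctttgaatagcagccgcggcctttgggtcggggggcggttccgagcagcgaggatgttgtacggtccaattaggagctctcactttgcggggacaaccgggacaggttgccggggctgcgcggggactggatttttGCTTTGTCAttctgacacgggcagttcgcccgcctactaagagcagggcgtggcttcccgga
Nfe2l2: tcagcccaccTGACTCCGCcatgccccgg
Srxn1: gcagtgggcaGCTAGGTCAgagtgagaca

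The values are quantile-normalized signals, which forces the libraries onto one shared distribution, so each library summed to between 484445 and 485947 and the sequencing depth is unknown. The mean Lrp1 signal of the WT libraries was 65.5 ± 13.3 and that of the LRP1 eKO libraries 4.41 ± 1.65 (SD over 4 libraries), with a log2 fold change of -3.66 and no overlap. The libraries held more signal of fibroblast and stellate markers than of endothelial markers, so the differences below cannot be assigned to ECs. Fibroblast and stellate markers summed to between 2803 and 3353 in a library, and the summed pan-endothelial markers were at 59.3 to 63.9 in WT and 76.2 to 99.3 in LRP1 eKO. Sinusoidal endothelial markers summed to 38.2 to 41.6 in WT and 25.5 to 51.4 in LRP1 eKO. The defining endothelial genes Pecam1 and Cdh5 were low, at 1.53 to 3.85 and at 1.26 to 4.99 over the 8 libraries. A pair of libraries stood apart, WT replicate 4, which was the farthest from its group median in 61.7% of the genes tested, and LRP1 eKO replicate 2, which was so in 37.2%. These are bulk libraries, in which fewer cells of a type and less RNA per cell cannot be told apart.

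Some of the NRF2 antioxidant genes were higher in LRP1 eKO and others were lower, with no common direction. Gclc, Txnrd1 and Hmox1 rose by about the same amount (log2 fold changes of 0.40, 0.39 and 0.38), Nqo1, Gclm and Keap1 fell (-0.45, -0.22 and -0.14), and Nfe2l2, Srxn1 and Gsr did not pass the test. A fold change is the difference of the mean log2(signal + 1), LRP1 eKO over WT, and a gene passed where limma with Benjamini-Hochberg adjustment over the 11391 genes tested gave an adjusted p under 0.05. All 10 genes passed the filter, which asked for 4 or more libraries with a signal of 1 or more, 9 of them in both genotypes. Slc7a11 passed it only through LRP1 eKO and so had to differ. With Slc7a11, 4 genes passed the test as higher and 3 as lower, where 41.2% of all genes tested passed, 19.0% as higher and 22.2% as lower. The genotypes did not overlap in 7 of the 10 genes, 4 higher and 3 lower, where this held for 42.6% of all genes tested, 20.0% as higher and 22.5% as lower. A 2-fold change together with an adjusted p under 0.05, which 1.66% of all genes tested reached, was reached by 0 of the 10. The median log2 fold change of all genes tested was -0.01.

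**Figure D1:**
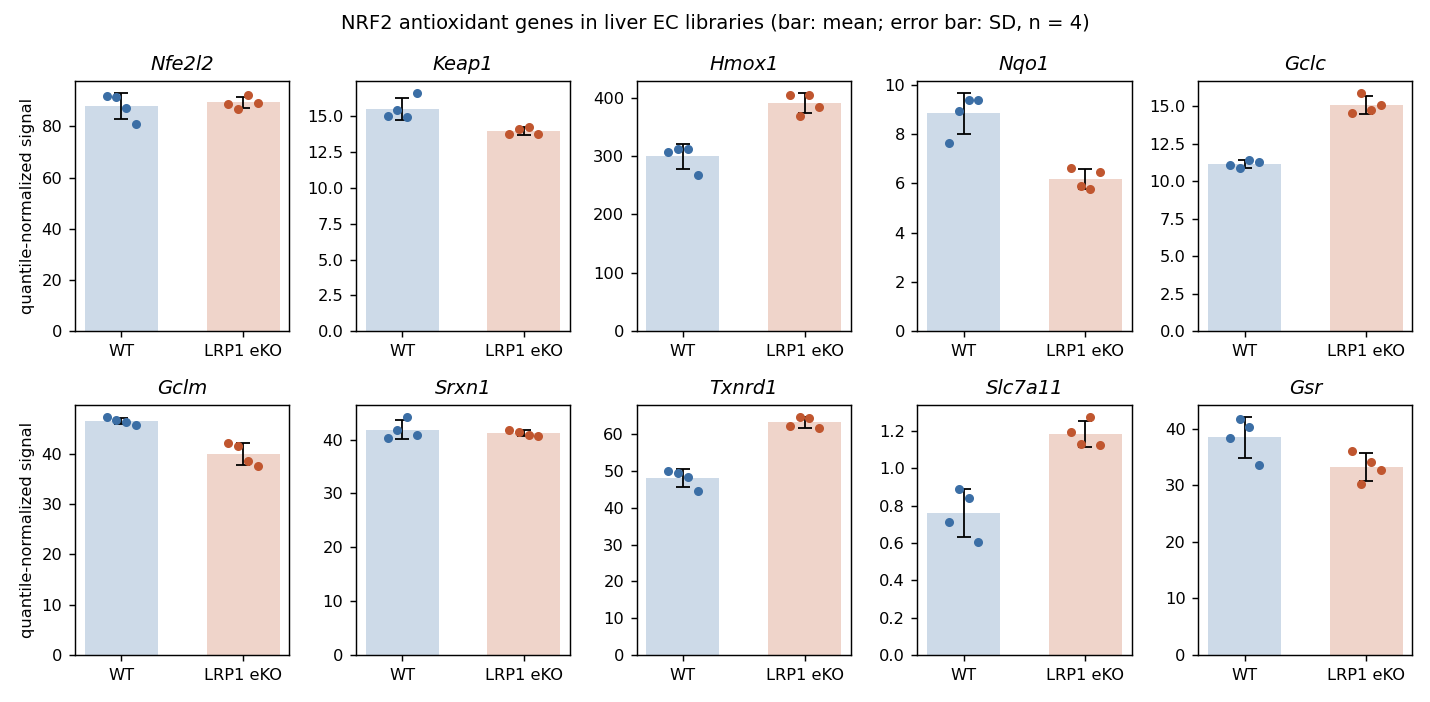
Quantile-normalized signal of the 10 NRF2 antioxidant genes in each library, with points for libraries, bars for the mean and error bars for the SD (n = 4 per genotype). The points of WT and LRP1 eKO do not overlap in 7 genes and overlap in Nfe2l2, Srxn1 and Gsr.

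The regulators were examined before their targets. Nfe2l2, which encodes NRF2 (chr2:75675513-75704641, minus strand, GRCm38), gave 92.0, 91.6, 87.3 and 81.1 in the WT libraries, listed here and throughout from replicate 1 to replicate 4, and 88.9, 87.0, 92.4 and 89.3 in the LRP1 eKO libraries. The genotypes overlapped throughout, and the log2 fold change was 0.02 with a 95% interval of -0.09 to 0.13 (limma, adjusted p = 0.713). Keap1, whose protein presents NRF2 to the CUL3 ligase (chr9:21229730-21239361, minus strand), had signals of 15.0, 15.4, 15.0 and 16.6 in WT and of 13.7, 14.1, 14.3 and 13.8 in LRP1 eKO. Every LRP1 eKO library was below every WT library, though the gap was small beside the spread of WT, in which replicate 4 was the highest. The log2 fold change of Keap1 was -0.14 with an interval of -0.25 to -0.03 (limma, adjusted p = 0.042). This call was near the threshold: without any 1 of the other 7 libraries than WT replicate 4 the adjusted p lay between 0.052 and 0.097, and without WT replicate 4 it was 0.043.

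Glutathione is made from glutamate, cysteine and glycine, and 3 of the genes act at its start. Gclc encodes the catalytic subunit of glutamate-cysteine ligase, the rate-limiting enzyme of glutathione synthesis (chr9:77754535-77794485, plus strand). Its signals were 11.1, 10.9, 11.4 and 11.3 in WT and 14.6, 15.9, 14.8 and 15.1 in LRP1 eKO. All 4 LRP1 eKO libraries were above all 4 WT libraries, and the means were 11.1 ± 0.24 and 15.1 ± 0.577 (SD, n = 4 each). The log2 fold change of Gclc was 0.40 with an interval of 0.30 to 0.51 and the smallest adjusted p of the 10 genes (limma, adjusted p = 1.6e-04). Gclm, the modifier subunit of the same enzyme (chr3:122245557-122270732, plus strand), had signals of 47.4, 46.7, 46.3 and 45.8 in WT and of 42.1, 41.5, 38.6 and 37.6 in LRP1 eKO. Here every LRP1 eKO library was below every WT library, and the log2 fold change was -0.22 with an interval of -0.32 to -0.11 (limma, adjusted p = 0.0054). Slc7a11, the transport subunit of the exchanger that brings in cystine for glutathione (chr3:49892526-50443614, minus strand), was near the limit of the table, with signals of 0.712, 0.887, 0.839 and 0.603 in WT and of 1.20, 1.13, 1.28 and 1.13 in LRP1 eKO. The genotypes did not overlap, and the log2 fold change of 0.31 (interval 0.15 to 0.47) depended on the pseudocount at this level, being 0.59 with a pseudocount of 0.1 and 0.10 with one of 5. With no filter at all, its adjusted p was 0.0060 by limma.

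The paired subunits of glutamate-cysteine ligase moved in opposite directions, so their ratio was taken within each library, a quantity chosen after the values were seen. The ratio of Gclc to Gclm signal was 0.233, 0.232, 0.246 and 0.246 in WT and 0.346, 0.382, 0.383 and 0.401 in LRP1 eKO. The means of the ratio were 0.239 ± 0.00762 and 0.378 ± 0.0230 in WT and LRP1 eKO (SD, n = 4 each). The means differed by 1.58-fold. Since the genotypes already did not overlap in either gene and the genes differed in opposite directions, the ratio could not overlap, and it was not tested. Since the signals of both genes are not stated to be per length, the ratio compares libraries and does not give the amounts of the subunits.

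**Figure D2:**
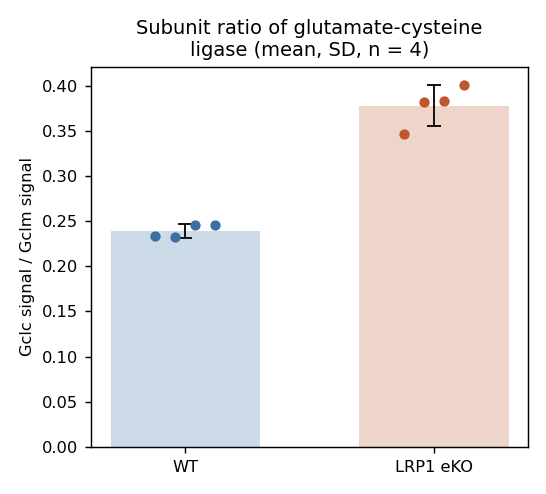
Ratio of Gclc to Gclm signal in each library, with points for the libraries and the mean and SD of the 4 libraries of each genotype. The WT libraries lie between 0.232 and 0.246 and the LRP1 eKO libraries between 0.346 and 0.401.

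Among the genes that return oxidized thiols to the reduced state, 1 rose and the other two did not pass the test. Txnrd1, the cytosolic thioredoxin reductase, a selenoprotein that uses NADPH (chr10:82833951-82897712, plus strand), had signals of 50.2, 49.5, 48.3 and 44.7 in WT and of 62.2, 64.7, 64.5 and 61.7 in LRP1 eKO. Every LRP1 eKO library was above every WT library, and the log2 fold change was 0.39 with an interval of 0.28 to 0.49 (limma, adjusted p = 2.0e-04). Srxn1, sulfiredoxin, which repairs over-oxidized peroxiredoxins (chr2:152105516-152111376, plus strand), had signals of 40.3, 41.9, 44.3 and 40.9 in WT and of 41.8, 41.4, 40.9 and 40.7 in LRP1 eKO. The genotypes overlapped, and the log2 fold change of -0.02 had an interval of -0.12 to 0.07 (limma, adjusted p = 0.717). Gsr, glutathione reductase (chr8:33652523-33698163, plus strand), had signals of 38.4, 41.8, 40.4 and 33.6 in WT and of 36.1, 30.3, 34.1 and 32.7 in LRP1 eKO. Of the WT libraries, 3 were above all of LRP1 eKO, and WT replicate 4 was among the LRP1 eKO values. The log2 fold change of Gsr was -0.20 with an interval of -0.37 to -0.04, just short of the threshold (limma, adjusted p = 0.054). Without WT replicate 4 it was -0.27 and passed (limma, adjusted p = 0.0072). It also passed with LRP1 eKO replicate 1 left out (limma, adjusted p = 0.045).

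The last pair act on heme and on quinones. Hmox1, heme oxygenase 1, which opens heme to biliverdin, iron and carbon monoxide (chr8:75093621-75100589, plus strand), had signals of 306, 311, 311 and 268 in WT and of 404, 368, 404 and 384 in LRP1 eKO. All 4 LRP1 eKO libraries were above all 4 WT libraries, and WT replicate 4 was the lowest. The means were 299 ± 21.1 and 390.4 ± 17.5 (SD, n = 4 each), and the log2 fold change was 0.38 with an interval of 0.25 to 0.52 (limma, adjusted p = 7.9e-04). The equal values within each genotype are equal ranks, since quantile normalization gives genes of the same rank the same value. Nqo1, a quinone reductase often used as a readout of NRF2 activity (chr8:107388225-107403206, minus strand), went the other way, with signals of 7.64, 8.93, 9.39 and 9.39 in WT and of 6.61, 5.88, 5.79 and 6.44 in LRP1 eKO. Every LRP1 eKO library was below every WT library, and the log2 fold change was -0.45 with an interval of -0.62 to -0.29 (limma, adjusted p = 0.0011). Nqo1 thus had the largest log2 fold change in size of the 10 genes with a pseudocount of 1.

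**Figure D3:**
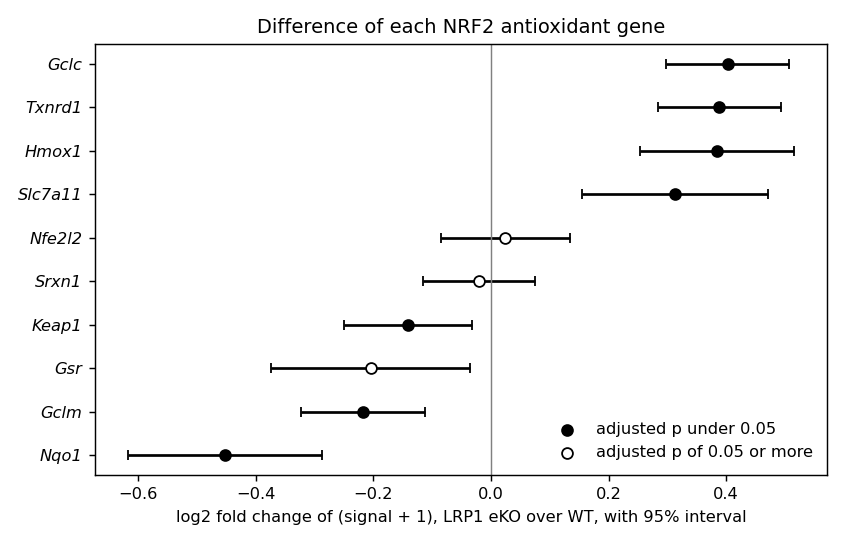
Log2 fold change of (signal + 1), LRP1 eKO over WT, for each of the 10 genes, with its 95% interval from limma; filled points have an adjusted p under 0.05. Gclc, Txnrd1, Hmox1 and Slc7a11 lie above 0, Keap1, Gclm and Nqo1 below it, and the intervals of Nfe2l2 and Srxn1 span it.

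Hepatocyte and skeletal muscle marker sums were lower in LRP1 eKO and pan-endothelial sums were higher. The macrophage and fibroblast sums did not separate the genotypes. Of 9 tested pan-endothelial markers, 4 were higher (Cdh5, Flt1, Eng and Esam), 0 were lower and 5 did not pass. That is 44.4% called, with a median log2 fold change of 0.36. Macrophages express Hmox1 strongly, and the summed signal of macrophage and Kupffer cell markers was 191 to 307 in WT and 75.5, 485, 822 and 899 in LRP1 eKO, ordered by size. Of these 18 markers, 13 were tested, of which 2 passed as higher and 1 as lower. That is 23.1% called against 41.2% of all genes tested. The median log2 fold change of the 13 was 1.14, and the LRP1 eKO libraries differed widely among themselves. The Kupffer cell gene Clec4f was listed at 0 in all 4 WT libraries. In each genotype the library with the lowest macrophage sum also had the lowest Hmox1 signal. LRP1 eKO replicate 2, one of the libraries that stood apart, had a macrophage sum of 75.5, below every WT library, and a Hmox1 signal of 368, above every WT library. With the macrophage level as a covariate the log2 fold change of Hmox1 was 0.34 (limma, adjusted p = 0.0015). The summed hepatocyte markers were 107 to 158 in WT and 37.9 to 49.7 in LRP1 eKO, where whole libraries summed to between 484445 and 485947. Of the 16 markers, 8 were tested, and all 8 passed as lower. Hepatocytes carry much of the liver's glutathione and detoxification enzymes, and 97.0% of the variance of the hepatocyte level lay between the genotypes, so that the hepatocyte level and the genotype cannot be told apart for any of the 10 genes. Skeletal muscle markers summed to 75.8 to 112 in WT and 50.6 to 52.8 in LRP1 eKO, and 6 of the 7 tested passed as lower, though 3 of the 7 (Tnnc2, Atp2a1 and Mb) passed the filter through WT alone and so had to be lower. Of 10 tested stellate and fibroblast markers, 2 were higher (Acta2 and Hand2), 3 were lower (Dcn, Lum and Pdgfra) and 5 did not pass, with a median of -0.08 and summed signals that overlapped. The fits with a macrophage or a hepatocyte covariate rest on marker levels in 8 bulk libraries and cannot decide the part of these cell types. That part was not tested.

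**Figure D4:**
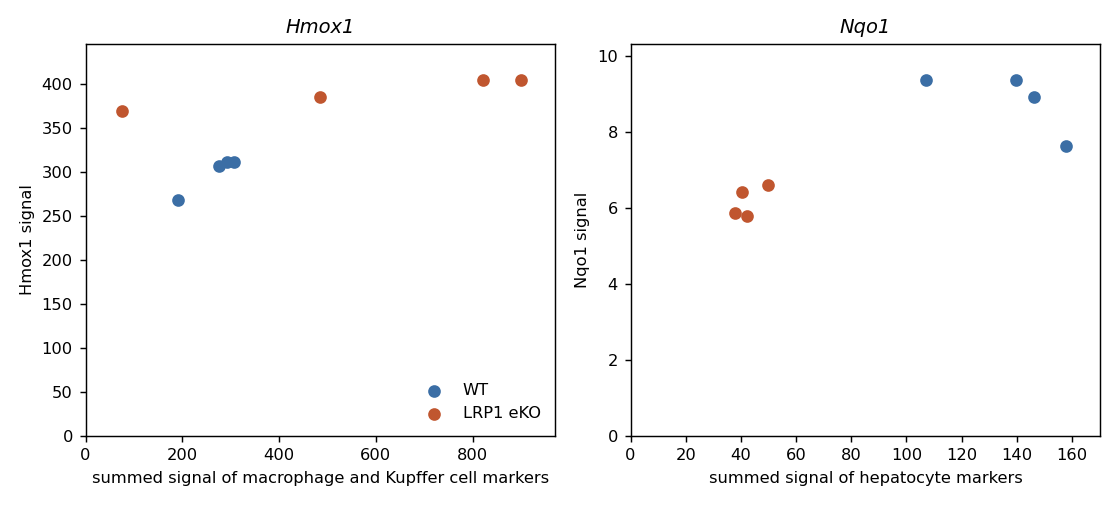
Hmox1 signal against the summed signal of macrophage and Kupffer cell markers, and Nqo1 signal against that of hepatocyte markers, with one point per library colored by genotype. LRP1 eKO replicate 2 has a macrophage sum of 75.5 and a Hmox1 signal of 368, and the hepatocyte sums of the genotypes do not overlap.

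After the group means were removed, some of the 10 genes varied together between libraries and others did not. Over the 45 pairs of genes and 8 libraries, the median Pearson correlation of the log2 values was 0.07, with 11 pairs above 0.5 and 10 below -0.5. Nfe2l2, Hmox1, Txnrd1, Slc7a11 and Gsr, grouped after the values were seen, made up 9 of the 11 pairs above 0.5, and their 10 pairs lay between 0.49 and 0.95, the highest being Hmox1 with Gsr. Nfe2l2 correlated with Hmox1 at 0.85, with Txnrd1 at 0.84, with Gsr at 0.73 and with Slc7a11 at 0.71. WT replicate 4 was the lowest WT library in all 5 of these genes. Over the 7 libraries without it, 3 of the 10 pairs were above 0.5, Hmox1 and Gsr were at 0.91, and Nfe2l2 was at 0.20 to 0.48 with the other 4 genes. The lowest correlation over 8 libraries was -0.76, between Keap1 and Hmox1, and without WT replicate 4 it was -0.0049. Around Gclc, the gene with the smallest adjusted p, the genes of the closest pattern among the 11390 others were Agpat6, 2310003H01Rik and Vps33a, each at 0.98 after the group means were removed. None of those 3 passed the test between the genotypes. They are the highest of 11390 correlations over only 8 libraries, and a link to Gclc was not tested.

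The partners of NRF2 and KEAP1 included genes that rose and genes that fell. Of 15 tested genes of this group, 7 were higher, 3 were lower and 5 did not pass, with a median log2 fold change of 0.23, where the median of all genes tested was -0.01. That is 66.7% called against 41.2% of all genes tested (19.0% as higher and 22.2% as lower). The number lower was 1 without WT replicate 3 or LRP1 eKO replicate 1. Nfe2l1, a relative of NRF2 that controls proteasome genes, had the largest change, from 71.2 ± 7.71 to 115 ± 8.06 (log2 fold change 0.68, limma adjusted p = 1.5e-04). The small MAF genes Mafk, from 13.0 to 17.5 (0.40), and Mafg, from 18.2 to 21.7 (0.25), were higher, while Maff did not pass (0.15, limma adjusted p = 0.099). Sqstm1, the autophagy receptor p62 that also binds KEAP1, was at 229.7 ± 10.4 in WT and 282 ± 13.4 in LRP1 eKO (0.29, limma adjusted p = 0.0013). Cul3, the scaffold of the ligase, was higher too (0.23), and Bach1, a repressor of Hmox1, did not pass (0.06, limma adjusted p = 0.603).

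Genes that use glutathione were on the lower side. Of 29 tested, 17 were lower, 0 were higher and 12 did not pass in limma, with a median log2 fold change of -0.27. That is 58.6% called against 41.2% of all genes tested (19.0% as higher and 22.2% as lower). At an unadjusted p under 0.05, 1 was higher, Gsto1, named after its value was seen. The leading genes were glutathione S-transferases, with Gsta4 at 24.7 ± 4.87 in WT and 9.72 ± 0.501 in LRP1 eKO (-1.25), Gsta3 at 43.8 ± 5.30 and 20.2 ± 1.17 (-1.07), and Gstm1 at 64.0 ± 3.00 and 40.3 ± 2.22 (-0.65). These enzymes join glutathione to electrophiles, belong to families of similar sequence and are abundant in hepatocytes. The summed hepatocyte markers were only 107 to 158 in WT and 37.9 to 49.7 in LRP1 eKO. Which cells gave the transferase signals was not tested. Gss, the enzyme after glutamate-cysteine ligase, did not pass (0.11, limma adjusted p = 0.288).

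The enzymes that remove peroxide and superoxide, and those that supply NADPH, were mixed. Of 23 peroxidase, thioredoxin and superoxide genes, 2 were higher, 8 were lower and 13 did not pass, with a median of -0.10. That is 43.5% called against 41.2% of all genes tested (19.0% as higher and 22.2% as lower). The number lower was 5 without WT replicate 3, LRP1 eKO replicate 1 or LRP1 eKO replicate 4. Sesn1, a sestrin, fell from 28.3 to 14.7 (-0.90), and the superoxide dismutases Sod2 (-0.31) and Sod1 (-0.30) fell. Prdx1, a substrate of sulfiredoxin, was at 606 in both genotypes. Txn1, the substrate of thioredoxin reductase 1, was 199.6 ± 11.9 in WT and 182 ± 5.32 in LRP1 eKO and did not pass (-0.13, limma adjusted p = 0.061). Among 12 NADPH genes, 2 were higher and 2 lower, which is 33.3% called, with a median of -0.07. The number lower was 4 without LRP1 eKO replicate 2, and the number higher was 1 without LRP1 eKO replicate 1 or replicate 3. The mitochondrial Idh2 fell from 108 ± 3.03 to 48.5 ± 4.17 (-1.14), Pgd of the pentose phosphate pathway rose (0.18) and Tkt fell (-0.17), and G6pdx, which opens that pathway, did not pass (-0.04, limma adjusted p = 0.585).

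Genes of heme and iron were called about as often as all genes, but more of them were lower than higher. Of 21 tested, 1 was higher, 8 were lower and 12 did not pass, with a median of -0.17. That is 42.9% called against 41.2% of all genes tested (19.0% as higher and 22.2% as lower). Without LRP1 eKO replicate 2 or replicate 4, 2 were higher. Blvra, which turns the biliverdin made by HMOX1 into bilirubin, fell from 37.0 ± 3.53 to 27.6 ± 1.18 (-0.41, limma adjusted p = 0.0011), while Blvrb (-0.18, adjusted p = 0.169) and the constitutive Hmox2 (0.01, adjusted p = 0.927) did not pass. The plasma proteins Hp (-1.33), Hpx (-1.15) and Trf (-0.93), which carry hemoglobin, heme and iron and are made by hepatocytes, were the leading genes. Mean Trf signal was 1387 in WT and 733 in LRP1 eKO. The summed hepatocyte markers were only 107 to 158 and 37.9 to 49.7, and which cells gave the Trf signal was not tested. Erythroid markers, whose cells make heme, summed to 24.7 to 58.0 in WT and 14.6 to 24.7 in LRP1 eKO, and their part in these values was not tested. The ferritin heavy chain Fth1 was at 7605, the top value of the table, in all WT libraries and 1 of LRP1 eKO, so its change (-0.35) is bounded by the ranks, and the light chain Ftl1 did not pass (0.16, limma adjusted p = 0.068).

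Other reported targets of NRF2 were called about as often as all genes. Of 20 tested, 2 were higher, 6 were lower and 12 did not pass. That is 40.0% called where 41.2% of all genes tested were (19.0% as higher and 22.2% as lower). The median was 0.01 and changed sign under several alternatives, and without LRP1 eKO replicate 2 the number higher was 7. Trim16 rose from 4.90 to 9.13 (0.78), the epoxide hydrolase Ephx1 fell from 201 to 166 (-0.28) and the aldehyde oxidase Aox1 fell from 7.27 to 4.95 (-0.48). Slc3a2, the heavy chain that pairs with SLC7A11, did not pass (0.14, limma adjusted p = 0.084). ATF4, a factor of the integrated stress response, also drives Slc7a11, so its targets were set beside the members. Of 17 tested, 7 were higher, 2 were lower and 8 did not pass, which is 52.9% called, with a median of 0.11. Ddit3 rose from 36.4 to 71.3 (0.94), Vldlr rose from 9.13 to 15.4 (0.69) and Cebpb fell from 53.9 to 30.9 (-0.79), while Atf4 itself did not pass (0.08, limma adjusted p = 0.253).

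**Figure D5:**
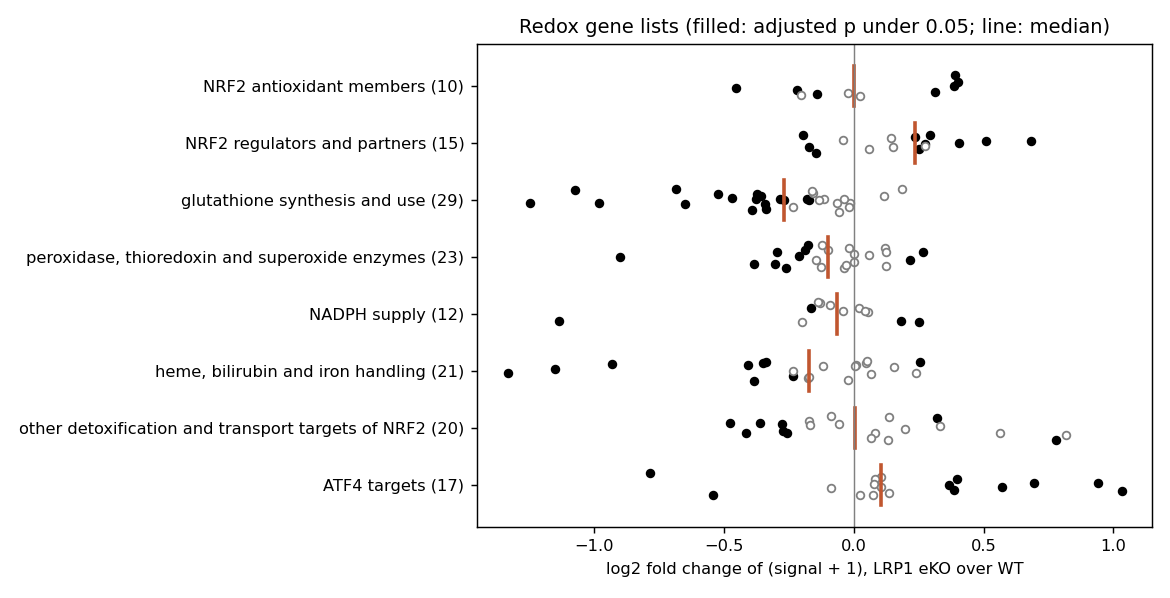
Log2 fold change of (signal + 1), LRP1 eKO over WT, of each tested gene in 8 gene groups, with the number tested in brackets, filled points for an adjusted p under 0.05 and a line at each median. The median lies at 0.23 for the regulators and partners and at -0.27 for glutathione synthesis and use.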

How the data were processed

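Expression was measured by mRNA-seq in 8 libraries of liver cells selected with PECAM-1 beads, 4 WT and 4 LRP1 eKO. The authors deposited 1 table of signal values for 22520 coding genes, quantile normalized by its name, and its unit before that step is not given in the sources used here. The submitters' processing notes name TopHat2, Cufflinks and mm10, while the study's methods name STAR, featureCounts and edgeR, and which of these made the table is not stated. The signals were not counts, so no count test was run and no counting interval could be given.

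Signals were compared on the log2(signal + 1) scale by limma (version 3.58.1, R 4.3.3) in a model of genotype alone with a trended prior variance. P-values were adjusted by Benjamini-Hochberg over 11391 genes, those for which 4 or more libraries reached a signal of 1. Gene groups were described by counts and medians. Gene positions are from GENCODE M21 (GRCm38), and promoter sequences are from RefSeq (GRCm38.p6). The fit was tested on simulated data. Alternatives covered the pseudocount, the filter, the scaling, the weights, marker covariates, a replicate block and leaving out libraries.

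The 10 genes and the gene groups were chosen with earlier results of these data known. Named besides the 10 were set regulators and reaction partners, Lrp1, Atf4, the 3 genes of smallest adjusted p in each group and the 3 genes most like Gclc. The marker genes, and Gsto1, were named after their values were seen. Mafg had 2 identifiers in the table, and the expressed one was used.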

Additional observations from a re-analysis of the deposited data

Results flagged for a closer look

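In 8 of the 94 gene and genotype groups examined, 1 library lay far from the other 3, measured as its gap to the nearest library over the range of the group. Chance would give 4.7 for independent groups, but these groups share the same 8 libraries, so the numbers cannot be compared directly. Hmox1 was the only one of the 10 NRF2 antioxidant genes among the 8 groups, with WT replicate 4 the lowest of WT at a gap of 0.884. Without that library the log2 fold change of Hmox1 was 0.33 (limma, adjusted p = 3.3e-04). WT replicate 4 was the highest of WT in Gsta4 (0.889), Trf (0.877), Hp (0.862) and Ddit3 (0.839). WT replicate 3 was the lowest of WT in Gstm1 (0.880) and Ephx1 (0.848). LRP1 eKO replicate 2 was the highest of its genotype in Sqstm1 (0.879).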

How the results depend on the processing

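Of the 10 NRF2 antioxidant genes, Hmox1 kept its direction and its call in all 20 alternatives with a test (log2 fold change 0.33 to 1.15), and Gclc, Gclm, Nqo1 and Txnrd1 did so in 19 of 20, the exception being the hepatocyte level as a covariate. That covariate was nearly the genotype itself and widened the standard errors of the 10 genes by a median of 5.13 times. With it, 1 of the genes was higher and 0 were lower, and Gclm (0.0137), Srxn1 (0.0881) and Gsr (0.84) changed sign. It left 3 higher and 1 lower among NRF2 partners, 3 lower among glutathione genes, 1 lower among peroxidase genes, 0 among NADPH and ATF4 genes, 0 higher and 1 lower among heme genes, and 1 higher and 1 lower among other NRF2 targets.

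Keap1 kept its call in 9 of 20 alternatives with a test. It lost it with the macrophage level as a covariate (limma, adjusted p = 0.093) and without both libraries that stood apart (limma, adjusted p = 0.054), and the cause was not tested. Gsr passed with array weights (limma, adjusted p = 0.0028), with centring on a trimmed mean (limma, adjusted p = 0.0496), with the macrophage covariate (limma, adjusted p = 0.011) and without both of those libraries (limma, adjusted p = 0.0062). At a 2-fold change, 0 of the 10 were higher and 0 lower. Leaving out 1 library at a time gave 3 to 4 of the 10 higher and 2 to 4 lower. In the groups it gave 6 to 8 higher and 1 to 3 lower for NRF2 partners, 0 to 1 and 15 to 18 for glutathione, 2 to 3 and 5 to 9 for peroxidase genes, 1 to 2 and 2 to 4 for NADPH, 1 to 2 and 7 to 9 for heme, 2 to 7 and 6 to 6 for other NRF2 targets, and 7 to 9 and 2 to 2 for ATF4 targets. Slc7a11 fell below the filter without any 1 LRP1 eKO library.

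A mean signal of at least 5 gave 5 lower peroxidase genes and 0 higher heme genes. Array weights gave 1 higher glutathione gene, 3 higher heme genes and 7 higher other targets. The macrophage covariate gave 2 higher glutathione genes. Without both libraries that stood apart, 1 glutathione gene, 3 heme genes and 8 other targets were higher and 4 NADPH genes were lower. The near-zero values of Nfe2l2, Srxn1 and the median of other targets changed sign. Nfe2l2 was at -0.0060 with array weights and at -8.2e-04 without both libraries, and it ranged from -0.0139 (without WT replicate 4) to 0.0462 when 1 library was left out. Srxn1 then ranged from -0.0379 to 0.00605 (without WT replicate 3). The median of other targets was -5.0e-04 with a pseudocount of 0.1, -0.0561 with no filter, -0.0892 at a mean signal of at least 5 and -0.0489 with the macrophage covariate, and it ranged from -0.0175 to 0.0243 when 1 library was left out, below 0 without LRP1 eKO replicate 1 or 4.

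Deviations of same-numbered libraries correlated at -0.130 to 0.178, and 0 of 4 WT libraries correlated best with their own number. These correlations gave no sign of a pairing by replicate number but cannot exclude one. With the replicate block 4 of the 10 genes were higher and 2 lower, Keap1 no longer passing (limma, adjusted p = 0.092), and 5 peroxidase genes were lower.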
